A study of Homo sapiens with 18 samples.

Results

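The epithelial and mesenchymal state genes are 10 genes of the 58302 in the expression table: EPCAM, CDH1, CDH2, VIM, FN1, ZEB1, ZEB2, SNAI1, SNAI2 and TWIST1. The set was chosen by EPCAM, which was seen to be higher in NAT10 knockdown cells, and the question was whether the other 9 genes followed it. The values of EPCAM are therefore given as a description, with no test, and support nothing here. PANC-1 is an established human pancreatic ductal adenocarcinoma cell line, and the study asked how the RNA acetyltransferase NAT10 acts in it. Lentivirus carried either a control (shCtrl) or a short hairpin RNA against NAT10 (shNAT10). The labels call the control an empty vector, while the study's list of oligonucleotides names a non-targeting hairpin. Both groups are derivatives of this 1 line with no further treatment named in the labels. RNA-seq was done on 3 libraries per group. Antibody capture of RNA fragments carrying N4-acetylcytidine (acRIP-seq, the mark that NAT10 writes) was done on 3 captured and 3 input libraries per group, and the peaks were deposited as 1 pooled list per group.

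Epithelial cells hold to each other through E-cadherin junctions and carry surface proteins such as EPCAM. In epithelial-mesenchymal transition (EMT), transcription factors of the SNAI, ZEB and TWIST families repress CDH1 and other junction genes, while N-cadherin, vimentin and fibronectin come up. Many carcinoma cells, PANC-1 among them, are known to hold markers of both states at once.

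The RNA-seq libraries held between 15831720 and 23521762 reads on genes. NAT10 itself, the targeted gene, was at 31.6, 27.7 and 28.6 FPKM (fragments per kilobase of transcript, scaled to library size) in shCtrl and at 7.92, 8.43 and 7.90 FPKM in shNAT10, so its level went with the labels in every library. Replicate 2 of shCtrl was the library least like its group, with Pearson r of 0.959 and 0.975 to the other shCtrl libraries over the tested genes on the log2 scale, against 0.982 between those other libraries and 0.980 to 0.981 within shNAT10. Ductal keratins were abundant in all libraries (summed KRT7, KRT8, KRT18 and KRT19 of 2783 to 3744 FPKM in shCtrl and 1470 to 1650 FPKM in shNAT10, non-overlapping). Of 8 fibroblast markers, 2 were above 1 FPKM on average and FAP was at 0 in every library, and the summed level was 29.6 to 34.7 FPKM in shCtrl and 19.3 to 22.9 FPKM in shNAT10. The 6 leukocyte markers summed to 2.28 to 2.96 FPKM and 1.41 to 1.62 FPKM, nearly all of it CD14, with CD3E at 0, and the 5 endothelial markers summed to under 1 FPKM in every library.

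Of the 9 genes other than EPCAM, 5 passed the filter on expression (at least 1 FPKM in at least 3 libraries), and all 5 did so in both groups. Of these, 1 was called higher (CDH2) and 1 lower (SNAI1), at an adjusted p under 0.05 in the limma fit over 12982 genes. In that fit 20.8% of all genes tested were called higher and 21.2% lower, so a call was common in this contrast. CDH1, VIM and ZEB1 did not pass the test, and FN1, ZEB2, SNAI2 and TWIST1 were below the filter. In bulk RNA, fewer cells of a type and less RNA per cell cannot be told apart. No source says that the 3 libraries of a group came from separate cultures, so the p-values measure only the spread between these libraries, which may be technical. For single genes, a two-sided exact permutation test of 3 libraries against 3 cannot give a p below 0.1.

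**Figure D1:**
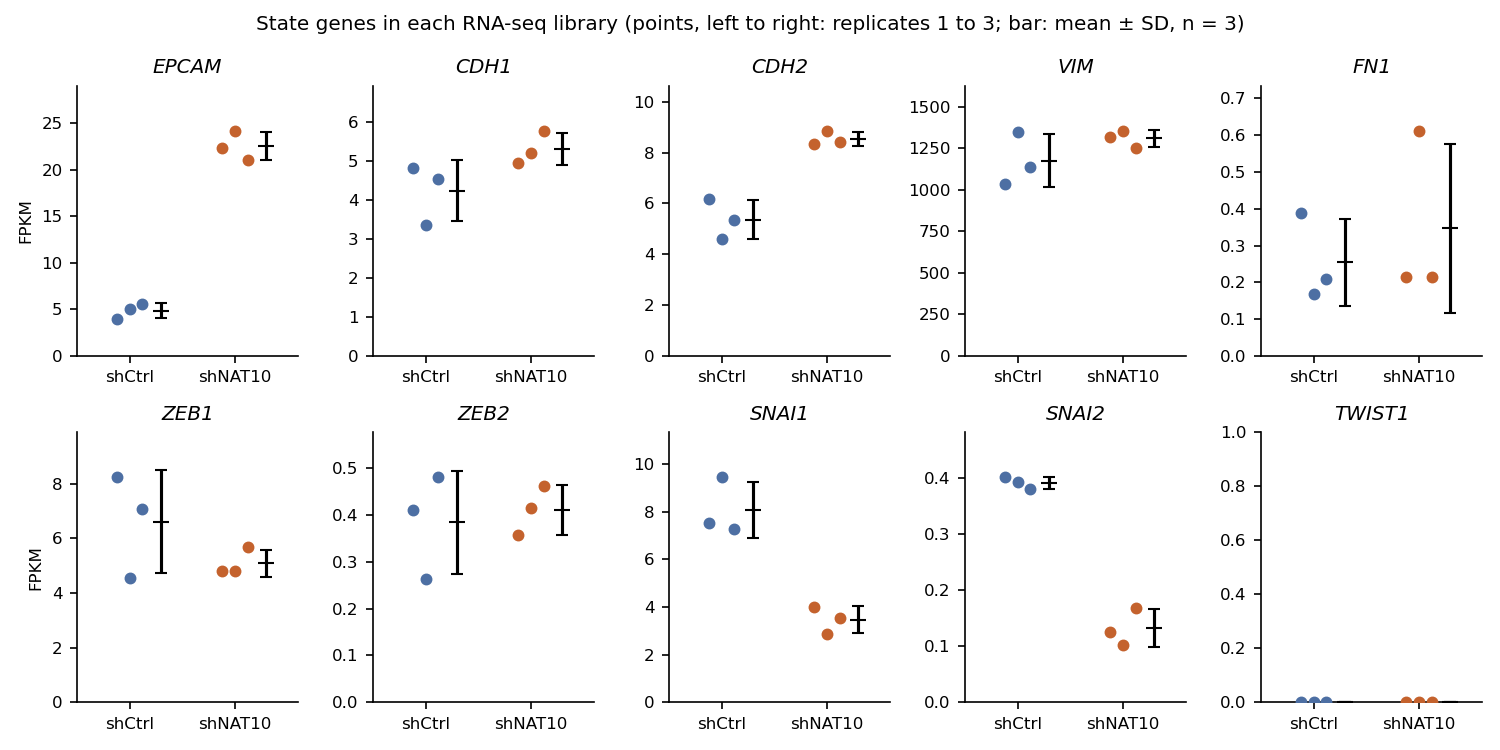
FPKM of the 10 state genes in each RNA-seq library, 1 panel per gene with its own axis from 0, blue for shCtrl and orange for shNAT10, and the mean ± SD (n = 3) beside the points. EPCAM, CDH1 and CDH2 sit higher in all shNAT10 libraries, SNAI1 and SNAI2 sit lower, the other genes overlap between groups, and TWIST1 is at 0 throughout. CDH1 was not called, and the share of all genes with groups apart is not given here.

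Among the epithelial surface and junction genes, EPCAM (ENSG00000119888, GRCh38 chr2:47345158-47387601, plus strand) encodes a cell adhesion glycoprotein of the epithelial membrane. It stood at 4.01, 5.04 and 5.55 FPKM in shCtrl replicates 1, 2 and 3 and at 22.4, 24.2 and 21.1 FPKM in shNAT10 replicates 1, 2 and 3. Every shNAT10 library was far above every shCtrl library, and the group means of 4.87 ± 0.783 and 22.6 ± 1.55 FPKM (SD, n = 3) were 4.63-fold apart. Behind these values were 521 reads in shCtrl and 2064 in shNAT10. The difference was 2.20 ± 0.13 on the log2(FPKM + 0.1) scale (SE), and since this contrast selected the gene no p is given.

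CDH1 (ENSG00000039068, GRCh38 chr16:68737225-68835548, plus strand) encodes E-cadherin, the adhesion receptor of epithelial junctions. Its levels were 4.83, 3.36 and 4.53 FPKM in shCtrl and 4.95, 5.21 and 5.77 FPKM in shNAT10. The groups did not overlap, but the lowest shNAT10 library was only just above the highest shCtrl library. The log2 fold change of 0.33 ± 0.15 did not pass the test (limma, adjusted p = 0.111), with an exact permutation p of 0.1, the smallest the design allows. CDH1 rested on 1263 reads in shCtrl and 1377 in shNAT10, and the largest estimate of its change under any alternative was 0.44. The difference between EPCAM and CDH1 in their log2 fold changes was not tested, because EPCAM chose the set.

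Of the genes on the mesenchymal side, CDH2 (ENSG00000170558, GRCh38 chr18:27950966-28177446, minus strand) encodes N-cadherin, which takes the place of E-cadherin in many mesenchymal and neural cells. It was measured at 6.16, 4.61 and 5.33 FPKM in shCtrl and at 8.33, 8.85 and 8.42 FPKM in shNAT10. All shNAT10 libraries were above all shCtrl libraries. CDH2 rose 1.59-fold between the group means of 5.37 ± 0.777 and 8.53 ± 0.278 FPKM, a log2 fold change of 0.67 ± 0.11 (limma, adjusted p = 0.00371; exact permutation p = 0.1). The reads behind it were 1410 in shCtrl and 1961 in shNAT10.

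The level of CDH1 relative to CDH2 within each library was looked at after their values had been seen, and is given with no test. The ratio of CDH1 to CDH2 in FPKM was 0.785, 0.728 and 0.850 in shCtrl and 0.594, 0.589 and 0.686 in shNAT10. N-cadherin RNA was thus above E-cadherin RNA, per length, in all 6 libraries, and by more in each shNAT10 library than in any shCtrl library. On the log2 scale the ratio was -0.35 ± 0.11 in shCtrl and -0.69 ± 0.12 in shNAT10 (SD, n = 3).

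VIM (ENSG00000026025, GRCh38 chr10:17228259-17237593, plus strand) encodes vimentin, the intermediate filament protein of mesenchymal cells, and was by far the most abundant of the 10 genes. It was at 1035, 1349 and 1138 FPKM in shCtrl and at 1320, 1354 and 1253 FPKM in shNAT10. The shCtrl range ran from below all shNAT10 libraries to within them. The log2 fold change of 0.16 ± 0.10 did not pass the test (limma, adjusted p = 0.245; exact permutation p = 0.3). VIM was called higher in 3 alternatives: with quantile normalization (0.40, adjusted p = 0.00013), with values rescaled to TPM, which gives every library the same sum (0.27, adjusted p = 0.0128), and without shCtrl replicate 2 (0.27, adjusted p = 0.00712). Of its exon bases, 24.4% lie opposite the antisense genes VIM-AS1 and AL133415.1, and the strand setting of the read counting is not given in the sources used here.

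FN1 (ENSG00000115414, GRCh38 chr2:215360440-215436172, minus strand) encodes fibronectin, a matrix glycoprotein. Its levels were 0.390, 0.167 and 0.209 FPKM in shCtrl and 0.214, 0.611 and 0.216 FPKM in shNAT10, from 31 to 109 reads in a library. Replicate 2 of shNAT10 was above all others, and the groups overlapped. FN1 was below the filter, and in the fit with no filter its log2 fold change was 0.27 ± 0.45 (limma, adjusted p = 0.740).

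Among the transcription factors that drive EMT, SNAI1 (ENSG00000124216, GRCh38 chr20:49982999-49988886, plus strand) encodes Snail, a zinc finger repressor of CDH1. It was at 7.52, 9.44 and 7.26 FPKM in shCtrl and at 4.01, 2.87 and 3.52 FPKM in shNAT10. The groups were well apart. SNAI1 fell from 8.07 ± 1.19 to 3.47 ± 0.572 FPKM, a log2 fold change of -1.20 ± 0.15 (limma, adjusted p = 0.00116; exact permutation p = 0.1), on 830 reads in shCtrl and 306 in shNAT10. Of the 5 tested genes, SNAI1 was the one whose change exceeded 1 on the log2 scale, beside 2.91% of all genes tested that were called higher and 3.57% that were called lower beyond that size.

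SNAI2 (ENSG00000019549, GRCh38 chr8:48917604-48921740, minus strand) encodes Slug, the close relative of Snail. It was far lower in level than SNAI1, at 0.402, 0.393 and 0.381 FPKM in shCtrl and 0.126, 0.102 and 0.169 FPKM in shNAT10. With the annotated transcript length of 2010 bases these values stand for 14, 16 and 18 reads in shCtrl and 4, 4 and 6 reads in shNAT10, and a shorter length would give whole reads too, and fewer of them. The groups did not overlap. SNAI2 was below the filter in every library, so it has no value in the fit above, but with no filter it fell by 1.09 on the log2 scale (SE 0.28, limma, adjusted p = 0.0438 over 29695 genes), and with voom weights on the recovered reads by 1.49 (SE 0.39, adjusted p = 0.0159 over 20155 genes). The second of these fits was added after the data had been seen.

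ZEB1 (ENSG00000148516, GRCh38 chr10:31318495-31529814, plus strand) encodes a zinc finger homeobox repressor of epithelial genes. Its levels were 8.22, 4.53 and 7.06 FPKM in shCtrl and 4.80, 4.80 and 5.67 FPKM in shNAT10. Replicates 1 and 3 of shCtrl were above all shNAT10 libraries, while shCtrl replicate 2 was the lowest of the 6. The log2 fold change of -0.33 ± 0.21 did not pass the test (limma, adjusted p = 0.245; exact permutation p = 0.4). Without shCtrl replicate 2 ZEB1 was called lower, at -0.58 (limma, adjusted p = 0.00345), so the lack of a call in the reported fit rested on that 1 library. The antisense gene ZEB1-AS1 shares 4.23% of the exon bases of ZEB1.

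ZEB2 (ENSG00000169554, GRCh38 chr2:144364364-144524583, minus strand), the paralog of ZEB1, was at 0.409, 0.263 and 0.479 FPKM in shCtrl and 0.356, 0.413 and 0.460 FPKM in shNAT10. The groups overlapped in full. In the fit with no filter the log2 fold change of ZEB2 was 0.10 ± 0.30 (limma, adjusted p = 0.868). TWIST1 (ENSG00000122691, GRCh38 chr7:19020991-19117672, minus strand), a basic helix-loop-helix factor, had 0 reads in all 6 libraries, while none of 10 housekeeping genes looked at was at 0 in any library. A count of 0 allows up to 3 reads, which would be 0.0766 to 0.114 FPKM in these libraries, for counting error only. Antisense genes shared 5.62% of the exon bases of CDH1, 2.75% of CDH2, 5.18% of ZEB2 and 6.94% of TWIST1. EPCAM, FN1, SNAI1 and SNAI2 shared no exon bases with another annotated gene.

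Ordered by mean level over the 6 libraries, the genes ran VIM, EPCAM, CDH2, ZEB1, SNAI1, CDH1, ZEB2, FN1, SNAI2 and TWIST1. In shCtrl alone, SNAI1, ZEB1, CDH2, EPCAM and CDH1 ran in that order from 8.07 to 4.24 FPKM on average, and each overlapped its neighbour in this order in library values. In shNAT10 EPCAM at 22.6 FPKM stood above these 4 others, whose means lay between 3.47 and 8.53 FPKM.

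**Figure D2:**
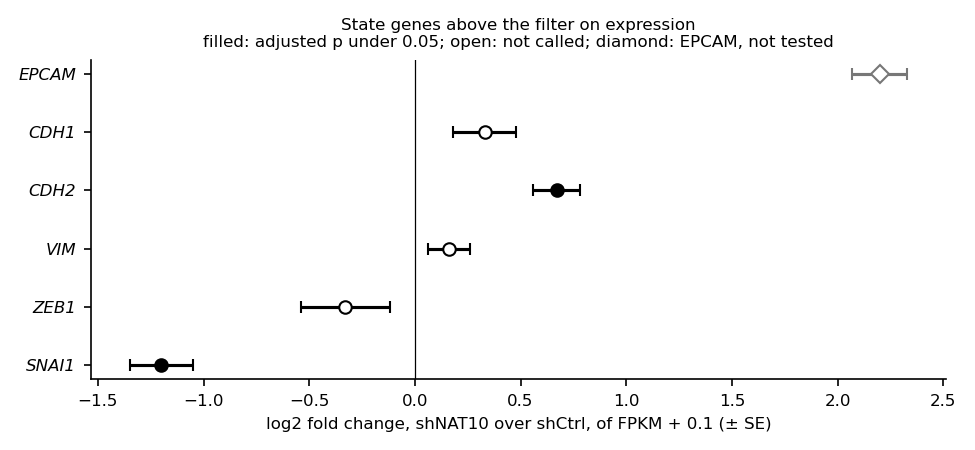
Log2 fold change of shNAT10 over shCtrl on the log2(FPKM + 0.1) scale with its SE for the 6 state genes above the filter, 3 libraries per group. CDH2 at 0.67 and SNAI1 at -1.20 are called (filled), CDH1, VIM and ZEB1 are not (open), and EPCAM at 2.20 is drawn as a diamond because it was not tested.

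Genes around the 10 were taken from lists of the epithelial and mesenchymal programs, with the 10 genes themselves left out. Of 55 epithelial genes (adhesion, polarity and their regulators) 34 were tested, and 11 were called higher and 7 lower, that is 32.4% and 20.6% of those tested beside 20.8% and 21.2% of all genes tested. Their median log2 fold change was 0.07, beside -0.01 for all genes tested. The 4 ductal keratins, all called lower, form a list of their own and are not in these counts. Of 50 mesenchymal genes 34 were tested, and 8 were called higher and 17 lower, or 23.5% and 50%, with a median of -0.31. Some of them passed the filter only through the group where they were higher. The genes of each list moved in both directions. Rescaling FPKM to TPM shifted the median log2 fold change of all genes by 0.11. On the TPM scale the mesenchymal list had 9 genes called higher and 14 lower and the epithelial list 13 and 7. Over the 12981 genes tested on that scale, 3372 were called higher and 2074 lower, so the shares of 20.8% and 21.2% are not its background.

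Within epithelial adhesion and polarity, 28 of 41 genes were tested, and 9 were called higher and 4 lower (32.1% and 14.3%, beside 20.8% and 21.2% of all genes tested). PERP, a desmosome-associated membrane protein, rose from 66.1 ± 4.56 to 236.0 ± 5.52 FPKM (log2 fold change 1.84 ± 0.07, adjusted p = 3.84e-05). The tight junction claudin CLDN3 rose by 1.35 ± 0.29 from a low 1.85 FPKM, and periplakin (PPL) by 0.83 ± 0.07. CDS1, a lipid synthesis enzyme counted among epithelial signature genes, rose by 0.73 ± 0.10. In the other direction, the polarity adaptor PARD6B fell by 0.84 and the tight junction protein cingulin (CGN) by 0.83 on the log2 scale. Plakoglobin (JUP), which binds cadherins inside the cell, fell by 0.34 and the protease inhibitor SPINT1 by 0.37. A further 13 genes of this list were below the filter.

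Of 14 epithelial regulators 6 were tested, and 2 were called higher and 3 lower, beside 20.8% and 21.2% over all genes. FOXA1, a pioneer factor, rose from 1.28 ± 0.152 to 2.41 ± 0.284 FPKM (log2 fold change 0.86), and the splicing regulator ESRP2 rose from 8.20 ± 0.907 to 13.3 ± 0.745 FPKM (0.70). ELF3 fell by 0.82, KLF4 by 0.49 and GRHL3 by 0.38 on the log2 scale. GRHL2, another epithelial factor of the GRHL family, was near 0, at 0.00734 FPKM in shCtrl and 0.00360 FPKM in shNAT10.

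Ductal keratins, the intermediate filament proteins of simple epithelia, were called lower in shNAT10 for all 4 genes of the list, beside 21.2% of all genes tested. KRT8 fell from 1739 ± 239 to 766 ± 54.0 FPKM (log2 fold change -1.18 ± 0.11, adjusted p = 0.000361). KRT18 fell by 0.84, KRT19 by 0.83 and KRT7 by 0.83 on the log2 scale.

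In the mesenchymal list the 4 largest falls were those of PMP22, DAB2, SPARC and LOXL2. PMP22, a membrane protein known from myelin, fell from 12.1 ± 1.09 to 3.39 ± 0.229 FPKM (log2 fold change -1.81 ± 0.10, adjusted p = 5.96e-05). The endocytic adaptor DAB2 fell by 1.37, the matrix protein SPARC by 1.30 and the collagen crosslinking enzyme LOXL2 by 1.09 on the log2 scale. Of the 34 tested, 5 were called and fell by more than 1 on the log2 scale and 3 rose by more than that, beside 3.57% and 2.91% of all genes tested. DAB2, SPARC and LOXL1 passed the filter only through shCtrl and COL3A1 only through shNAT10, the group where each was higher. Their changes thus helped select them, and these counts lean to large changes. The risers were led by matrix genes, with COL5A2 going from 55.2 ± 8.17 to 142.9 ± 4.03 FPKM (log2 fold change 1.38 ± 0.11, adjusted p = 0.000214), COL3A1 rising by 1.24 from 0.776 FPKM and tenascin C (TNC) by 1.04. The ectonucleotidase NT5E rose by 0.51. Fibroblast markers, which overlap this list, did not move one way: COL1A1 fell by 0.69 while COL3A1 rose. Whether other cells took part in these differences was not tested.

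**Figure D3:**
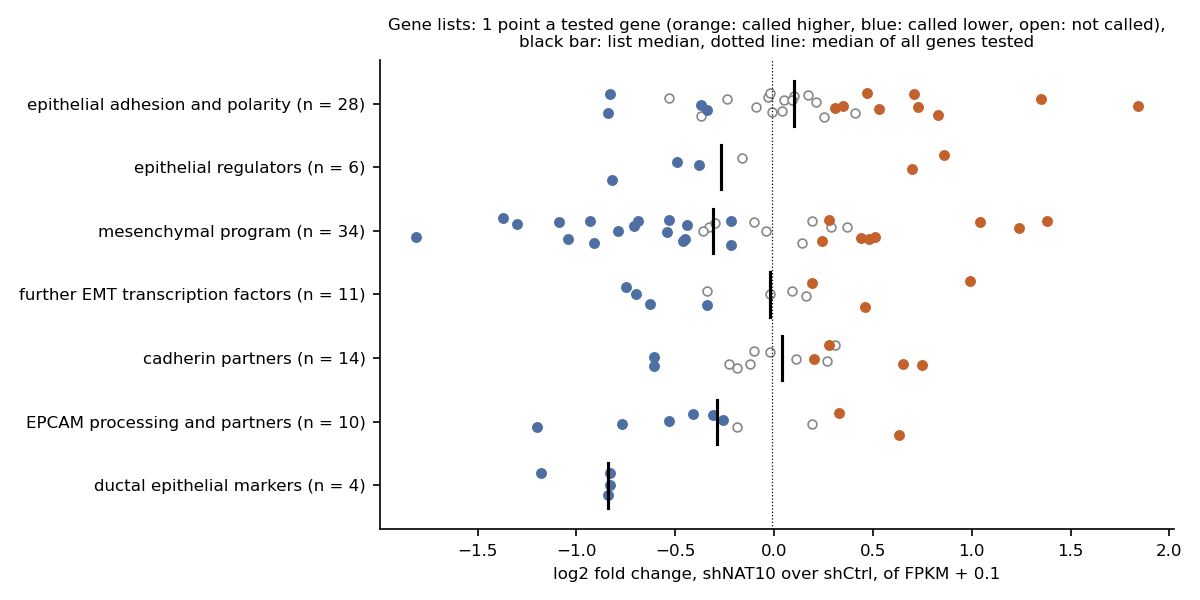
Log2 fold change of shNAT10 over shCtrl on the log2(FPKM + 0.1) scale for each tested gene of 7 lists, with the list median as a black bar and the median of all genes tested as a dotted line. The mesenchymal program has a median of -0.31 with genes called in both directions, epithelial adhesion and polarity a median of 0.10, and all 4 ductal keratins lie below -0.8.

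Among 17 further transcription factors linked to EMT, 11 were tested, and 3 were called higher and 4 lower (27.3% and 36.4%, beside the same 20.8% and 21.2% over all genes). TCF3, the E-protein that pairs with basic helix-loop-helix factors, rose from 8.96 ± 0.361 to 17.9 ± 1.16 FPKM (log2 fold change 0.99 ± 0.08). ETS1 rose by 0.46, and SOX9 by 0.19 with an adjusted p of 0.0498 (limma), next to the threshold. The architectural factor HMGA2 fell by 0.70, TWIST2 by 0.63 and FOXC2 by 0.34 on the log2 scale. TWIST2, the paralog of TWIST1, was expressed where TWIST1 was not, at 4.30 ± 1.11 FPKM in shCtrl and 2.69 ± 0.384 FPKM in shNAT10, with overlapping libraries.

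Of 16 partners of the cadherins 14 were tested, and 4 were called higher and 2 lower, or 28.6% and 14.3% beside 20.8% and 21.2% over all genes. The junction scaffold AFDN rose by 0.75 ± 0.17 and PKP4 by 0.65 ± 0.07, while the actin linker vinculin (VCL) fell by 0.61 and the catenin ARVCF by 0.61 on the log2 scale. CTNNA1, which ties cadherins to actin, rose by 0.20 and EZR by 0.28.

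The proteases that cut EPCAM are its direct partners. Of 11 genes of EPCAM processing and partners 10 were tested, and 2 were called higher and 6 lower (20% and 60%, beside 20.8% and 21.2% of all genes tested). ADAM17, a sheddase of the EPCAM ectodomain, fell from 15.0 ± 2.92 to 6.38 ± 0.278 FPKM (log2 fold change -1.20 ± 0.14, adjusted p = 0.000955), and ADAM10 fell by 0.77. Among the parts of gamma-secretase, which cuts the remaining stub, NCSTN rose by 0.63 while PSENEN fell by 0.53, APH1A by 0.31 and PSEN2 by 0.26 on the log2 scale. BACE2 rose by 0.33 and CD9, a tetraspanin, fell by 0.41. These are RNA levels, and the cutting of EPCAM was not measured.

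The genes whose log2(FPKM + 0.1) values over the 6 libraries were most like those of EPCAM were CCNC with a Pearson r of 0.999, and ZNF76, NUDT3, CREBL2 and SUCLG2, each with 0.998. Over the protein-coding genes tested, 124 had an r of at least 0.99 with EPCAM. For CDH1 they were PPHLN1 (r = 0.996), MLH3 (0.995), PALB2, SMC5 and SMC6 (0.994 each), and 17 genes reached 0.99. Both groups enter each r, and the points of 1 library share its depth. EPCAM was chosen by its gap between the groups, so genes with a clear gap of any size rank high in its list. CDH1 was lowest in shCtrl replicate 2, at 3.36 FPKM, the library least like its group. Genes that were also low there tend to rank high in the CDH1 list. Both lists and the counts of 124 and 17 are therefore a description and support nothing here.

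In acRIP-seq, 5 of the 10 genes held a peak in the shCtrl list and 7 in the shNAT10 list, beside 37.0% and 35.8% of 19817 protein-coding genes. The 10 genes had 27 peaks in shCtrl and 26 in shNAT10, of 16892 and 15813 peaks in all. Since each list pools the 3 captures of its group and scales its fold enrichment within itself, a peak in 1 list and not in the other has no replicate check, and no test was made between the lists. EPCAM and SNAI1 had no peak in either list, so neither the gene that chose the set nor the state gene with the largest called change carried one. Of coding genes with a mean of 1 to 10 FPKM, 45.2% had a peak in shCtrl and 43.4% in shNAT10, and at 10 to 100 FPKM, the range of EPCAM in shNAT10, 65.2% had one in shNAT10.

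Both cadherins held peaks in their coding sequence. CDH1 had 2 peaks in shCtrl, with fold enrichments of 21.6 and 86.5, and 1 in shNAT10, with a fold enrichment of 1540, and these did not overlap. CDH2 had none in shCtrl and 2 in shNAT10, with fold enrichments of 24.7 and 29.2. The median fold enrichment of all peaks was 49.3 in the shCtrl list and 45.2 in the shNAT10 list.

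ZEB1 had 4 peaks in shCtrl, 2 of them in the coding sequence and 2 in the 3′ UTR, and 3 in shNAT10, all in the coding sequence. A single stretch of 300 bases lay under a peak of both lists, at a fold enrichment of 2350 in shCtrl and 80.1 in shNAT10. ZEB2 had 7 peaks in shCtrl and 3 in shNAT10, and 1 peak of each overlapped, over 181 bases of the coding sequence. VIM, the most abundant of the 10, had 1 peak in shCtrl with a low fold enrichment of 2.92 and a log10 p of -201, and none in shNAT10, and 44 of its 150 bases lay on the exons of the VIM transcript with the longest coding sequence.

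The spliced RNA of 4 stretches is shown: the ZEB1 stretch under a peak of both lists, and those cadherin peaks of at most 300 bases that lie wholly in the coding sequence, 2 of CDH1 in shCtrl and 1 of CDH2 in shNAT10. The CDH1 peak of shNAT10 is not shown because 207 of its 211 bases were on the transcript used. The first CDH1 peak, with a log10 p of -3.29 and a log10 FDR of -1.8, was far less certain than the second, with -58.6 and -57.5. They were read from GENCODE v29 transcripts of GRCh38, 5′ to 3′ on the RNA strand. Capitals mark matches to CNNCNNCNNCNN, a cytosine repeat known from acetylated sites on RNA.
ZEB1, chr10:31520861-31521160, plus strand, both lists: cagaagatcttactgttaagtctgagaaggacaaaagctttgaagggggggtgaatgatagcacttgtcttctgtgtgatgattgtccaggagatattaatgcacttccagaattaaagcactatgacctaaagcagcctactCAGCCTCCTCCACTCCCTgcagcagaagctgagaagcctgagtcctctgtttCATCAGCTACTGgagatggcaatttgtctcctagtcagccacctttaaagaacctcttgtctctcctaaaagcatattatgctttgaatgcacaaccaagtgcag
CDH1, chr16:68801708-68801888, plus strand, shCtrl: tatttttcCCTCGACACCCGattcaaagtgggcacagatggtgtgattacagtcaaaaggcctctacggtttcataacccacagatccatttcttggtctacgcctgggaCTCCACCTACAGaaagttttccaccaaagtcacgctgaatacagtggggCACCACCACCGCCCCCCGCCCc
CDH1, chr16:68810276-68811828, plus strand, shCtrl, spliced over 2 exons: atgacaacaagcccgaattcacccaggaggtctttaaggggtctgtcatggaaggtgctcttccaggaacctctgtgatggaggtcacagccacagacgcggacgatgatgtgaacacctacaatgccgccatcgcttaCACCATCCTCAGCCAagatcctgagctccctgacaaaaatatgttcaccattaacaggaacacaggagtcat
CDH2, chr18:27990157-27992700, minus strand, shNAT10, spliced over 2 exons: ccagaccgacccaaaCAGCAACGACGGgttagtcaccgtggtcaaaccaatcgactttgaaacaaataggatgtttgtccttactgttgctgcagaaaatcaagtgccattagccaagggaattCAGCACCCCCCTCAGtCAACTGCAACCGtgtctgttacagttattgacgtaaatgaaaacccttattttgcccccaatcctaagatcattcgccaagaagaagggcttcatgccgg

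All 4 sequences held the repeat, counted with overlaps: 4 matches in ZEB1, 8 and 2 in CDH1 and 4 in CDH2. The reverse complement NNGNNGNNGNNG had 3 matches in ZEB1, 0 and 3 in CDH1 and 1 in CDH2. The repeat is common: of adjoining windows cut from the coding sequence of 19922 genes, 56.2% of those of 181 bases, 60.5% of 211, 64.1% of 240 and 70.1% of 300 held at least 1 match, and for the reverse complement the shares were 58.0%, 62.9%, 66.9% and 73.7%. These sequences were 44.7% to 52.5% G or C, beside 52.3% to 52.4% over the windows. A match is a run of letters and not a measured site.

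FN1 was covered almost throughout. It had 13 peaks in shCtrl, on 81.0% of its transcript, and 15 in shNAT10, on 86.2%. Of the bases under peaks in shCtrl 87.5% were also under a peak in shNAT10, and 86.0% the other way round. The fold enrichment reached 10300 in shCtrl and 4050 in shNAT10, while the RNA-seq level of FN1 was 0.255 ± 0.118 and 0.347 ± 0.229 FPKM. Only 11 of 8244 genes with a peak had as many peaks or more in shCtrl, and 2 of 7979 in shNAT10, FN1 counted in both.

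SNAI2 and TWIST1 each had 1 peak in shNAT10 and none in shCtrl, with fold enrichments of 654 and 947. TWIST1 thus had a peak in shNAT10 although no RNA-seq library held a read of it. Such peaks on barely expressed genes were not rare in the lists: of coding genes with a mean under 0.1 FPKM, 11.3% had a peak in shCtrl and 10.8% in shNAT10. The acRIP libraries were made apart from the RNA-seq libraries, from fragmented total RNA, and the input level of these genes was not analysed here.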

How the data were processed

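RNA-seq of PANC-1 cells (3 shCtrl and 3 shNAT10 libraries) was deposited by the authors as FPKM per Ensembl gene. The submitters' processing notes name HISAT2 and HTSeq 0.11.0 on hg38. Whole reads could be recovered for 99.5% of values above 0 (tolerance 0.001). The lengths tried were those of the gene's GENCODE v29 transcripts, longest first, then its joined exons, then any length up to that. In that release 58039 of 58302 genes were matched. The tested scale was log2(FPKM + 0.1) for genes with at least 1 FPKM in at least 3 libraries, fitted with limma 3.58.1 (mean-variance trend, R 4.3.3) and called at a Benjamini-Hochberg adjusted p under 0.05 over all genes. Single genes also had a two-sided exact permutation test (scipy 1.17.1). The script was tested on simulated data. Alternatives were a pseudocount of 1, no filter, a minimum of 5 FPKM, quantile normalization, median centring, TPM, a replicate block, no trend, voom on recovered reads and each library left out.

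acRIP-seq (3 captured and 3 input libraries per group) was deposited as 1 peak list per group, with a log10 p-value and a fold enrichment per peak as the authors' caller gave them. The caller is not given in the sources used here. Overlap meant at least 1 shared base of the same gene. Each peak was placed on the transcript with the longest coding sequence in GENCODE v29 (GRCh38).

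The 10 genes and the lists were chosen with earlier results of these data known. Named were all 10 genes, the 4 called genes with the largest rise and the 4 with the largest fall of each list, list genes at or near 0, and the 5 coding genes most correlated with EPCAM and with CDH1. A few list genes are not reported here. APH1A, PSEN2, CDH3, ESRP1 and OVOL2 were named after their values had been seen.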

Additional observations from a re-analysis of the deposited data

How the results depend on the processing

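CDH2 was called higher and SNAI1 lower under all 15 alternatives, at log2 fold changes of 0.57 to 0.77 and of -1.31 to -1.02. With a minimum of 5 FPKM, SNAI1 passed only through shCtrl and CDH2 would not have passed without shNAT10. Each was kept by the group where it was higher, so that alternative adds no support. CDH1 was not called in any of the 14 alternatives that tested it (adjusted p of 0.0536 to 0.286), and a minimum of 5 FPKM removed it. With EPCAM left out, 1 state gene was called higher in the reported fit and 2 with quantile normalization, with TPM values and without shCtrl replicate 2, where VIM was added. There was 1 called lower in the reported fit and 2 with no filter, where SNAI2 was added, and without shCtrl replicate 2, where ZEB1 was added. Leaving out 1 library gave 1 to 2 called higher and 1 to 2 called lower. Of the epithelial list 7 genes were called higher with a minimum of 5 FPKM against 11. That filter removed CDH3, CLDN3, CDS1 and FOXA1, which were called higher in the reported fit. Over all genes, 2065 of 8474 tested were called higher with it. With a pseudocount of 1 the difference of EPCAM was 2.01. TPM values moved the split of calls over all genes from 2699 higher and 2751 lower to 3372 higher and 2074 lower. Beyond the genes that a filter removed or added, the causes of these changes were not tested.

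The deviations of same-numbered libraries from their group means correlated at -0.043, 0.064 and 0.107. No source used here says that the numbers pair the libraries, and these values cannot settle whether they do. A fit with the replicate block called 2524 genes higher and 2603 lower and left 1 state gene called in each direction. Over the stricter peak lists and overlap the state genes held 19 to 24 peaks in shCtrl, 19 to 23 in shNAT10 and 10 to 14 shared ones. The log2 ratio of CDH1 to CDH2 differed between the groups by -0.41 to -0.28 with 1 library left out, an alternative added after the data had been seen. The low reads of FN1, ZEB2, SNAI2 and TWIST1 limit what can be said of them.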
